A study of Arabidopsis thaliana with 4 samples.

Results

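The interaction between genotype and temperature was taken from leaf RNA sequencing of *Arabidopsis thaliana* as a difference of differences. For each gene, the log2 ratio of 4 °C over 20 °C in the libraries labelled Col-0 was subtracted from that in the libraries labelled sme1-1. The linear form of this value is called the response ratio below: a log2 response ratio of 1 means that the ratio of 4 °C over 20 °C was 2-fold larger under the sme1-1 labels. All 4 libraries of the study enter it, and 17218 of the 23049 genes with a read in any library had the mean of at least 1 CPM (counts per M reads, M standing for mega) that was required. At that edge, AT2G42395 was kept at a mean of 1.00 CPM and AT5G61360 was left out at a mean of 0.999 CPM. The mean was taken over all 4 libraries, so a gene can pass through 1 high library. MIOX2 did so through the library labelled Col-0 4 °C. AT4G03450, AACT1 and DTX1 did so through the library labelled sme1-1 4 °C, which also makes their response ratios high. Such genes enter the counts and the list and family shares below.

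Leaves came from 2-week-old plants grown on soil in long days. Every group had the Col-0 background, either wild type or carrying sme1-1, a mutation of SmE1. Plants of 20 °C groups grew in light of 90 µmol m-2 s-1, and plants of 4 °C groups spent 24 h at 4 °C and 40 µmol m-2 s-1, so the labelled cold exposure also lowered the light. Each of the 4 groups was 1 library, with no replicate. No spread between plants could therefore be computed, no p-value is given, and every interval is a 95% interval for counting error alone.

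SmE1 is a subunit of the Sm ring, the protein ring that assembles around the small nuclear RNAs of the spliceosome, which removes introns from messenger RNA precursors. In *Arabidopsis*, exposure to low temperature above freezing starts a large change of transcription known as cold acclimation. It includes CBF transcription factors, dehydrins and other protective proteins, and sugars that act as osmoprotectants. A mutation that acts on the cold response makes the ratio of cold over control differ between mutant and wild type, which is the quantity examined here.

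The transcript of the mutated gene went against the labels. SME1 (AT2G18740) had 14.7 CPM under the label Col-0 20 °C, 0.679 under Col-0 4 °C, 27.8 under sme1-1 20 °C and 0.919 under sme1-1 4 °C. It was low in both libraries labelled 4 °C and high in both labelled 20 °C, not low under the sme1-1 labels. SME2 (AT4G30330), which encodes another SmE protein, lay between 9.59 and 11.6 CPM in all 4. Cold-regulated genes did not follow the temperature labels either: COR15A, a chloroplast protein that protects membranes in the cold, had 25.9 and 30.1 CPM under the Col-0 labels at 20 °C and 4 °C, against 5092 and 6272 under the sme1-1 labels. By its arithmetic, the response ratio has the same sign and size if the labels sme1-1 20 °C and Col-0 4 °C are exchanged. The largest change of any gene under that exchange was 0.0, which checks the computation only. Levels and simple ratios are therefore given by library label, and only the response ratio is read across them. Values in a series of 4 always follow the order Col-0 20 °C, Col-0 4 °C, sme1-1 20 °C and sme1-1 4 °C. A bracket after such a series gives the log2 response ratio and its 95% counting interval.

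The libraries held between 44.6 M and 47.2 M counted reads and listed between 21352 and 21551 genes each. A level of 0 reads allowed up to 0.0672 CPM in the shallowest library. All 29 listed photosynthesis genes had reads in every library, and their summed level was 138162, 141219, 100840 and 98350 CPM, lower in both libraries labelled sme1-1. Root markers summed to between 73.9 and 147 CPM, with 7 or 8 of 12 detected, and 3 of these genes at 0 in all libraries. Flower and pollen markers summed to between 23.8 and 36.1 CPM, and seed markers to between 0.406 and 0.785 CPM. In whole leaves, fewer cells of a type and less RNA per cell cannot be told apart.

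Promoter windows are shown for the first 2 genes in each direction, since these carry the largest response ratios that counting error allows. Each window is the 250 bases before the annotated gene start, 5′ to 3′ on the gene's strand, from the RefSeq TAIR10.1 assembly. Capitals mark matches to the motifs searched on both strands: CCGAC (CRT/DRE core), ACGTG (ABRE core), CACGTG (G-box, which contains an ABRE core), TTGAC (W-box core), AAAATATCT (evening element), AAACCCTAA (telo-box), GCCGCC (GCC-box core) and the mitochondrial dysfunction motif, searched here as CTTG, 5 free bases, CA, 1 free base and G. The last motif is known from genes of mitochondrial stress signalling and was added after the leading genes had been seen.
AT2G04050: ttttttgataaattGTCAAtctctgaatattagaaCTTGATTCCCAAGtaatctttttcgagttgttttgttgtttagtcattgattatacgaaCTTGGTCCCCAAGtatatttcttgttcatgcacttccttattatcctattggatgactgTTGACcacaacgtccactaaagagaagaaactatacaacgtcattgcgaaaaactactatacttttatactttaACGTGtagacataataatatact
UGT74E2: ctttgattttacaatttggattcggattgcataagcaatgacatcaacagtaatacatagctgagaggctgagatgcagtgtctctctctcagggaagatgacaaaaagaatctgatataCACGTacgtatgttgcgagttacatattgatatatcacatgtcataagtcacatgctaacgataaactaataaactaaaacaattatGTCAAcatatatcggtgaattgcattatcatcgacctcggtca
AT1G11740: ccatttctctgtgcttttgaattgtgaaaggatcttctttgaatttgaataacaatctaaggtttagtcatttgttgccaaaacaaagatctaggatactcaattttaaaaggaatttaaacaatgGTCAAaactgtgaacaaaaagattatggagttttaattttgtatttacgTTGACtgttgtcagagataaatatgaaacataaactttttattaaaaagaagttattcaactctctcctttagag
MIOX2: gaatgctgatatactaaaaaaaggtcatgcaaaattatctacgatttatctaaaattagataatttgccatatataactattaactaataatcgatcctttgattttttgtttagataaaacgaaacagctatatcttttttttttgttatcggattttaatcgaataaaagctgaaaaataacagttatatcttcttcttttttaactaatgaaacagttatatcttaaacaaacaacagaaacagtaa
All 4 windows lie on the minus strand, at chr2:1339469-1339718 for AT2G04050, chr1:1704839-1705088 for UGT74E2, chr1:3966851-3967100 for AT1G11740 and chr2:8533780-8534029 for MIOX2. The AT2G04050 window held 2 mitochondrial dysfunction motifs, 2 W-box cores and 1 ABRE core. The UGT74E2 window held 1 ABRE core and 1 W-box core, and the AT1G11740 window held 2 W-box cores. The MIOX2 window held no match to these letters.

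In most genes the ratio of 4 °C over 20 °C differed by less than 2-fold between the genotype labels. The log2 response ratio had a median of 0.06 over the 17218 genes, with 95% of them between -0.86 and 1.07. Of these genes, 16405 (95.3%) lay within 2-fold. The counting interval left out 0 in 9645 genes (56.0%), 5552 higher and 4093 lower, so many of the differences within 2-fold were larger than counting error. The response ratio was past 2-fold in the higher direction in 543 genes (3.15%) and in the lower direction in 270 (1.57%), so 66.8% of the genes past 2-fold were higher. With the TMM scaling of edgeR in place of file totals that share was 55.6%, from 440 higher and 351 lower, and with DESeq2 size factors it was 57.4%. TMM lowered every log2 response ratio by about 0.0658. The interval for counting error lay wholly beyond 2-fold for 164 higher and 68 lower genes.

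**Figure D1:**
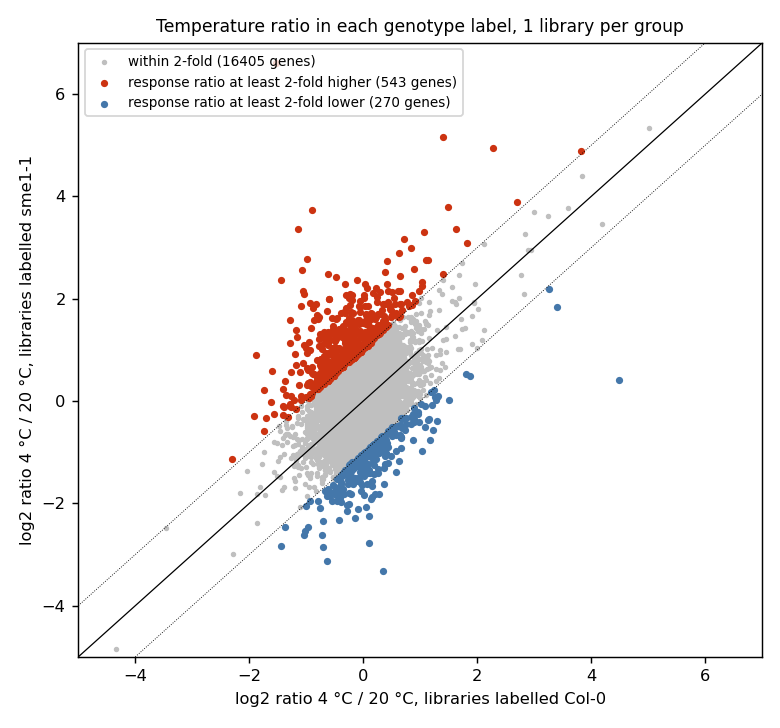
Each point is 1 of 17218 genes. The x axis is the log2 ratio of 4 °C over 20 °C in the libraries labelled Col-0, and the y axis is the same ratio in the libraries labelled sme1-1. The solid line marks equal ratios and the dotted lines 2-fold, with 543 genes above them in red, 270 below them in blue and 16405 between them in grey.

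Genes with low levels were more often past 2-fold than genes with high levels. Among the 4008 genes with a mean of 1 to 5 CPM, 8.53% were past 2-fold on the higher side and 3.97% on the lower side, and the median counting error (SE) of the log2 response ratio was 0.283. Between 5 and 20 CPM, 2.18% of 6112 genes were higher and 1.16% lower (median SE 0.136). Between 20 and 100 CPM the shares were 0.941% and 0.525% of 5526 genes (median SE 0.0718). Among the 1572 genes at 100 CPM or more, 1.02% were higher and 0.700% lower, with a median SE of 0.0330. Both shares were lower above 20 CPM than below it, with slightly larger shares at 100 CPM or more than between 20 and 100 CPM. The higher direction held more genes in each of the 4 ranges with file totals, and the ranges were not counted with TMM scaling. The mean that sets the range comes from the same 4 libraries, so 1 high library can place a gene in it.

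The library labelled sme1-1 4 °C held the extreme value in most of these genes. It was the highest of the 4 in 402 of the 543 higher genes and the lowest in 211 of the 270 lower genes. The response ratio rises with the levels labelled sme1-1 4 °C and Col-0 20 °C, so these counts are partly built in. The same counts were not made over all genes. A stricter description counted a gene as having 1 library apart when the other 3 spanned at most 2-fold and that library lay at least 2-fold beyond them. By that rule the library labelled sme1-1 4 °C stood apart and high in 85 higher genes (15.7%), and apart and low in 73 lower genes (27.0%). The library labelled sme1-1 20 °C stood apart and low in 48 higher genes and apart and high in 11 lower genes. Both libraries labelled Col-0 together stood apart in few genes, with 9 genes low in Col-0 4 °C and 3 high in Col-0 20 °C among the higher genes. No library stood apart in 398 higher genes (73.3%) and 179 lower genes (66.3%). Over all 17218 genes, the library labelled sme1-1 4 °C stood apart and high in 0.645% and apart and low in 0.749%. The library labelled sme1-1 20 °C stood apart and low in 0.430% of all genes and apart and high in 0.116%. Genes past 2-fold were chosen on a value that 1 extreme library makes large, so their counts are a description. What else set these single libraries apart was not tested.

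**Figure D2:**
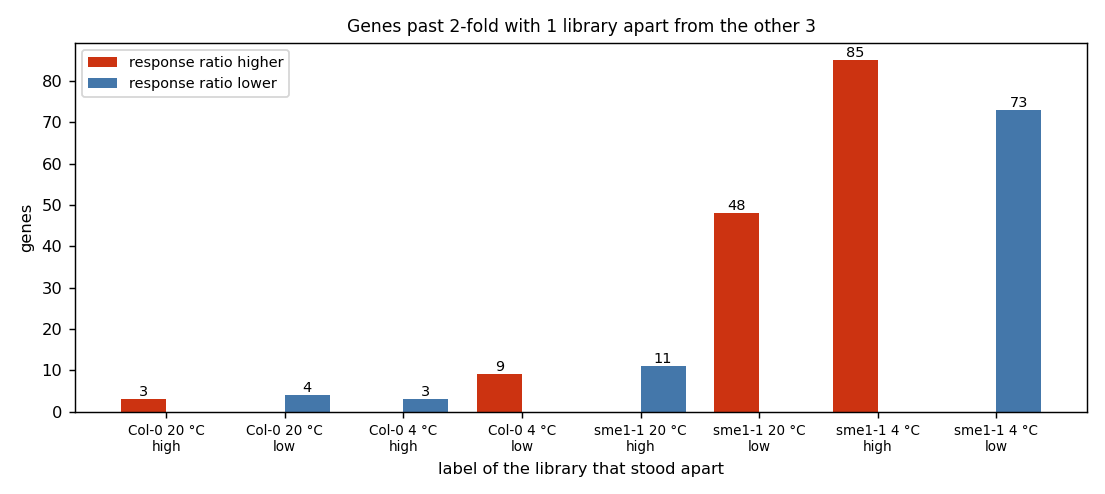
Bars count the genes past 2-fold in which 1 library lay at least 2-fold beyond the other 3, which spanned at most 2-fold. The x axis names the library label and whether it was high or low. The tallest bars belong to the library labelled sme1-1 4 °C, at 85 higher and 73 lower genes.

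In other genes with a higher response ratio, the library that stood apart was not the one labelled sme1-1 4 °C. BGLU11, a beta-glucosidase, had 4.48, 6.02, 1.04 and 7.22 CPM, and a log2 response ratio of 2.31 (1.81 to 2.81). WSD1, which the annotation names as an O-acyltransferase, had 9.68, 12.6, 1.65 and 9.70 CPM (2.14, interval 1.75 to 2.54). DOGT1, a glucosyltransferase that detoxifies deoxynivalenol, had 37.1, 21.5, 9.47 and 20.1 CPM (1.87, interval 1.67 to 2.07). In each of these genes the library labelled sme1-1 20 °C lay below the other 3. The library labelled sme1-1 4 °C was highest in BGLU11, almost level with Col-0 20 °C in WSD1, and below both Col-0 labels in DOGT1, nearer to Col-0 4 °C. OXS3, named for oxidative stress, was low in the library labelled Col-0 4 °C instead, at 4.68, 1.80, 4.58 and 4.96 CPM (1.47, interval 1.02 to 1.92).

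The 15 leading genes with a higher response ratio were ranked by the interval bound nearest to 0. AT2G04050, a member of the MATE family of efflux carriers, led at 3.16, 1.06, 0.0445 and 9.12 CPM. The level in the library labelled sme1-1 20 °C was only 2 reads, against 141, 50 and 427 in the others, and its log2 response ratio was 8.13 with a wide interval of 6.68 to 9.59. With 0.5 CPM in place of 0.05 CPM added before the logarithm it was 5.37, so the size depends on that constant while the direction does not. UGT74E2, a glucosyltransferase that acts on the auxin indole-3-butyric acid, had 5.04, 2.67, 1.60 and 21.8 CPM (4.63, interval 4.17 to 5.09). AT2G18193, a P-loop nucleoside triphosphate hydrolase by annotation, had 2.11, 5.60, 0.578 and 22.5 CPM (3.78, interval 3.14 to 4.41). In all 3 the library labelled sme1-1 4 °C was the highest and the library labelled sme1-1 20 °C the lowest.

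Camalexin is an indole compound that defends against fungi, and genes of its synthesis were among the leaders. PAD3, the cytochrome P450 of the last step of camalexin synthesis, had 0.628, 0.255, 2.27 and 23.6 CPM, and a log2 response ratio of 4.51 (3.55 to 5.46). Both libraries labelled sme1-1 lay above both labelled Col-0, and the library labelled sme1-1 4 °C lay far above all others. CYP71A13, a cytochrome P450 of an earlier step, had 17.6, 8.34, 3.47 and 20.7 CPM (3.63, interval 3.34 to 3.93). Its reads covered 48.9% and 36.7% of the gene under the Col-0 labels but 92.8% and 96.0% under the sme1-1 labels, although the library labelled Col-0 20 °C had 786 reads and the library labelled sme1-1 20 °C had 156. Where the Col-0 reads came from within the gene was not tested. Its near copy CYP71A12 had 0.134, 0.255, 1.36 and 3.82 CPM (0.74, interval -0.56 to 2.04), and only uniquely mapped reads were counted for both.

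Of the 15 measured genes of camalexin and indole glucosinolate synthesis, 6 were at least 2-fold higher and none lower (40.0% and 0%, against 3.15% and 1.57% over all genes). The gene lists were chosen with earlier results of these data known, so list shares are a description. The list median was 0.74 against 0.06 over all genes. With a mean of 5 CPM or more required, the median of the members left was 0.48. GSTF7, a glutathione S-transferase, had 6.90, 4.52, 42.2 and 167 CPM (2.59, interval 2.33 to 2.85). GSTF6, its close homologue with a role in camalexin synthesis, had 17.1, 26.9, 193 and 717 CPM (1.25, interval 1.11 to 1.38). Both were higher in both libraries labelled sme1-1, and highest in the one labelled 4 °C. CYP81F2, which hydroxylates indole glucosinolates, had 2.71, 1.17, 1.33 and 3.59 CPM (2.58, interval 1.96 to 3.19), and the methyltransferase IGMT1 of the same branch had 1.84. CYP79B2 and CYP79B3, which make the precursor of both compounds, stayed within 2-fold at 0.73 and 0.48, as did CYP83B1 of the glucosinolate branch at 0.07. The regulator MYB51 had 0.96, while its relative MYB34 had -0.53.

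Genes of mitochondrial retrograde signalling, by which impaired mitochondria change nuclear transcription, had the largest median of the lists, 1.19. Past 2-fold were 6 of the 9 members measured, all of them higher (66.7% and 0%, against 3.15% and 1.57% over all genes). This list was chosen with earlier results of these data known, so its share and median are a description. AT2G04050 and UGT74E2, described above, belong to this list. AOX1A, the alternative oxidase that bypasses part of the respiratory chain, had 25.1, 18.2, 20.9 and 64.6 CPM (2.09, interval 1.92 to 2.25). BCS1, an ATPase of the outer mitochondrial membrane, had 5.92, 9.10, 2.65 and 19.96 CPM (2.28, interval 1.92 to 2.63). NDB2, an alternative NAD(P)H dehydrogenase, had 8.20, 10.03, 19.2 and 53.7 CPM (1.19, interval 0.96 to 1.41). In all 3 the library labelled sme1-1 4 °C was the highest, and the other 3 differed in order from gene to gene. GSTU24 had 1.11, and the transcription factors of the pathway had smaller values, with ANAC013 at 0.72 and ANAC017 at 0.34. NDA1, a dehydrogenase of the inner membrane, had 0.13.

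The mitochondrial dysfunction motif lay in 4.28% of the windows of higher genes (23 of 538), in 0.766% of those of lower genes (2 of 261) and in 1.23% of all 17129 windows. The motif was chosen after the genes had been seen, so these shares are a description. They hold for the form searched, with any base at the single free position, and a narrower form was not searched. Sites are printed for the higher genes described here and the retrograde list members whose windows hold the motif, to show the free bases and positions. Capitals mark the fixed letters, which every site holds because the search requires them.
AT2G04050, 215 bases before the start: CTTGattccCAaG
AT2G04050, 156 bases before the start: CTTGgtcccCAaG
AT2G18193, 90 bases before the start: CTTGcaccgCAcG
AT2G21640, 51 bases before the start: CTTGctctcCAaG
CRK5, 58 bases before the start: CTTGacttgCAaG
NDB2, 79 bases before the start: CTTGgccacCAaG
SUS1, 179 bases before the start: CTTGtttgtCAaG
ANAC017, 110 bases before the start: CTTGtctgaCAcG
NDA1, 70 bases before the start: CTTGcgcatCAaG
The sites of AT2G04050 are at chr2:1339671-1339683 and chr2:1339612-1339624 on the minus strand, and that of AT2G21640 is at chr2:9254327-9254339 on the plus strand (TAIR10.1). The site of AT2G18193 is at chr2:7919423-7919435 on the minus strand, that of CRK5 at chr4:12120266-12120278 on the minus strand and that of NDB2 at chr4:2572348-2572360 on the plus strand. The site of SUS1 is at chr5:7055565-7055577 on the minus strand, that of ANAC017 at chr1:12451295-12451307 on the minus strand and that of NDA1 at chr1:2204034-2204046 on the plus strand. Within the retrograde list the motif was in 2 of the 6 genes past 2-fold and in 2 of the 3 that were not, ANAC017 and NDA1. The W-box core lay in 53.0% of windows of higher genes, 44.8% of lower genes and 44.0% of all. The CRT/DRE core, the site of CBF factors, lay in 13.2% of windows of higher genes and 13.2% of all, and in 9.58% of those of lower genes. The ABRE core had 27.0%, 27.6% and 23.2% for higher, lower and all genes, and the G-box 6.88%, 6.13% and 7.44%. The evening element had 3.35%, 1.92% and 2.52%, the GCC-box core 2.42%, 1.15% and 1.94%, and the telo-box 1.30%, 1.92% and 2.17%.

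**Figure D3:**
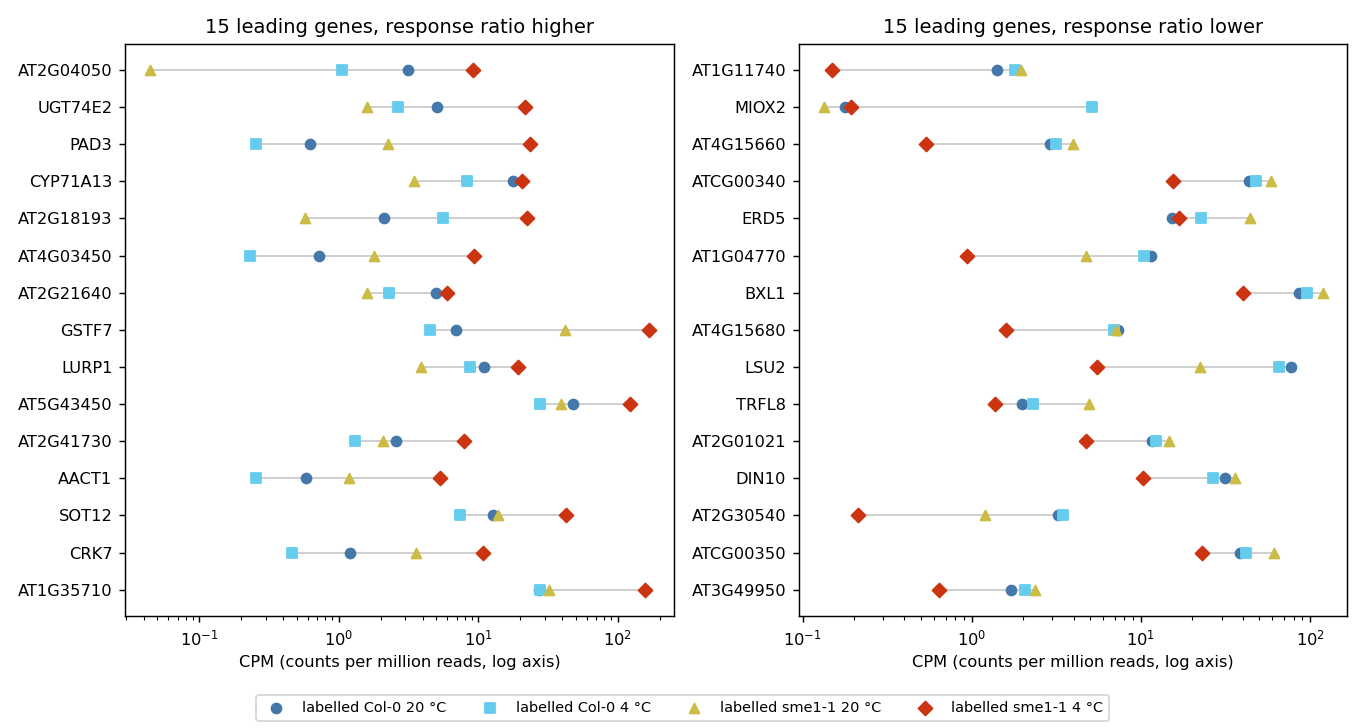
The x axes give the level in CPM on a log axis and the y axes list the 15 leading genes with a higher (left) and a lower (right) response ratio. Each of the 4 symbols is 1 library, and grey lines span the lowest to the highest. The library labelled sme1-1 4 °C is the highest in 15 of 15 genes on the left and the lowest in 13 of 15 on the right. The genes were ranked on a value that rises with the level in that library, so these counts are partly built in.

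The remaining leading genes with a higher response ratio differed in which libraries were high or low. AT2G21640, annotated as a marker of the oxidative stress response, had 4.998, 2.31, 1.60 and 5.94 CPM (2.96, interval 2.46 to 3.45). LURP1, needed for basal defence against downy mildew, had 11.01, 8.80, 3.89 and 19.3 CPM (2.61, interval 2.31 to 2.91). In both the library labelled sme1-1 20 °C was the lowest. SOT12, a sulfotransferase that acts on salicylic acid, had 12.8, 7.36, 13.9 and 42.3 CPM (2.40, interval 2.17 to 2.63). AT1G35710, a leucine-rich repeat kinase, had 27.2, 27.9, 32.4 and 157 CPM (2.25, interval 2.11 to 2.38). AT5G43450, a 2-oxoglutarate-dependent oxygenase, had 47.9, 27.8, 39.2 and 122 CPM (2.43, interval 2.30 to 2.55). In these last 3 the library labelled sme1-1 4 °C stood alone above the other 3. AT4G03450, an ankyrin repeat protein, had 0.717, 0.233, 1.78 and 9.38 CPM (3.80, interval 2.83 to 4.78). AACT1, annotated as an anthocyanin acyltransferase, had 0.583, 0.255, 1.18 and 5.36 CPM (3.20, interval 2.19 to 4.20). Both rested on 11 to 12 reads under the label Col-0 4 °C, which gives their wide intervals. AT2G41730 had 2.85 (2.30 to 3.39) and CRK7 2.86 (2.13 to 3.59).

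Salicylic acid is a hormone of defence against microbes, and its list had 5 of 17 members past 2-fold, all higher (29.4% and 0%, against 3.15% and 1.57% over all genes). The list median was 0.70, and this list too was chosen with earlier results of these data known. With a mean of 5 CPM or more required, the median of the members left was 0.28. SARD1, a transcription factor that drives salicylic acid synthesis, had 3.03, 3.14, 4.20 and 12.7 CPM (1.53, interval 1.12 to 1.94). PR5, a pathogenesis-related protein, had 10.5, 6.36, 211 and 325 CPM (1.34, interval 1.12 to 1.55). CBP60G, a relative of SARD1, had 8.002, 6.64, 1.29 and 2.50 CPM (1.20, interval 0.70 to 1.69). These 3 had similar response ratios at very different levels: PR5 was high, and CBP60G low, in both libraries labelled sme1-1. PR1 had 1.13 (0.39 to 1.87). EDS5, which exports the precursor of salicylic acid from chloroplasts, had 1.00 (0.53 to 1.48), and it lay within 2-fold with TMM or DESeq2 scaling. The synthesis enzyme ICS1 had 0.17 and the regulators EDS1 and PAD4 had 0.08 and 0.78.

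Families of surface receptors and detoxification enzymes were counted by the words of their product names, and 3.15% of all measured genes were higher and 1.57% lower. Of 31 measured receptor-like proteins, 10 were past 2-fold and higher and none lower (32.3% and 0%, median 0.37). The other 21 lay within 2-fold, and the lowest value was -0.46. RLP23, the receptor of a peptide from NLP proteins of microbes, had 2.69, 2.48, 6.58 and 34.2 CPM (2.48, interval 2.08 to 2.89), and RLP34 had 10.4, 13.9, 12.4 and 55.2 CPM (1.72, interval 1.51 to 1.94). Of 22 cysteine-rich receptor kinases, 4 were higher and 2 lower (18.2% and 9.09%, median 0.62), with CRK5 at 3.10 (2.02 to 4.19) and CRK30, with 3 reads under the label sme1-1 4 °C, at -2.15 (-3.53 to -0.78). Of 28 glutathione S-transferases, 9 were higher and none lower (32.1% and 0%, median 0.23), and GSTF2 had 148, 105, 112 and 274 CPM (1.78, interval 1.71 to 1.85). Of 92 cytochromes P450, 8 were higher and none lower (8.70% and 0%, median 0.18). Of 81 UDP-glycosyltransferases, 6 were higher and 1 lower (7.41% and 1.23%, median 0.05). The words were matched with their capitals, so PAD3 and UGT74E2, whose product names are capitalised or worded otherwise, are not in these counts. Of 32 MATE carriers, 4 were higher and none lower (12.5% and 0%, median 0.32). DTX1, next to AT2G04050 in the gene codes, had 0.134, 0.467, 0.222 and 3.72 CPM (2.30, interval 0.89 to 3.72). Of 79 disease resistance genes of the NBS-LRR type, 6 were higher and none lower (7.59% and 0%, median 0.35).

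Further families were picked after the values had been seen and are given as description. Of 57 ankyrin repeat proteins, 6 were higher and 2 lower (10.5% and 3.51%, against 3.15% and 1.57% over all genes, median 0.21). ACD6, a membrane protein that promotes salicylic acid signalling, had 91.3, 72.3, 81.5 and 273 CPM (2.08, with a counting SE of 0.0430). WAK1, a kinase that binds pectin of the cell wall, had 31.1, 25.1, 30.3 and 107 CPM (2.13, interval 1.99 to 2.27). In both the library labelled sme1-1 4 °C stood alone above 3 similar libraries. Of 101 leucine-rich repeat kinases, 6 were higher and 2 lower (5.94% and 1.98%, median 0.16).

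The 15 leading genes with a lower response ratio were ranked in the same way. AT1G11740, an ankyrin repeat protein by annotation, had 1.41, 1.80, 1.96 and 0.150 CPM (-3.67, interval -4.75 to -2.59), and its reads covered between 10.2% and 27.9% of the gene. MIOX2, which oxidises myo-inositol to glucuronic acid, had 0.179, 5.11, 0.133 and 0.192 CPM (-4.09, interval -5.67 to -2.51). With 0.5 CPM added its log2 response ratio was -2.92. These genes differ in which library made the value: AT1G11740 was low in the library labelled sme1-1 4 °C, and MIOX2 was high in the library labelled Col-0 4 °C, at 241 reads against 6 to 9 in the others. ERD5, the proline dehydrogenase that breaks down proline, had 15.2, 22.8, 44.0 and 16.8 CPM (-1.96, interval -2.14 to -1.78). DIN10, a dark-induced member of the raffinose synthase family, had 31.3, 26.8, 36.2 and 10.3 CPM (-1.59, interval -1.77 to -1.40). ERD5 was high in the library labelled sme1-1 20 °C, whereas DIN10 was low in the library labelled sme1-1 4 °C.

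The leading lower genes included members of the thioredoxin superfamily, whose proteins take part in redox reactions. AT4G15660 had 2.91, 3.14, 3.96 and 0.534 CPM (-2.88, interval -3.55 to -2.21), AT4G15680 had 7.35, 6.91, 7.11 and 1.60 CPM (-2.03, interval -2.45 to -1.61), and AT2G30540 had 3.25, 3.48, 1.20 and 0.214 CPM (-2.34, interval -3.29 to -1.40). The library labelled sme1-1 4 °C was the lowest in each of these genes. In the superfamily, a list made after these values had been seen, 5 of 36 measured genes were at least 2-fold lower and 1 was higher, with a median of -0.22. That is 13.9% lower and 2.78% higher, against 1.57% and 3.15% over all genes. AT4G15660, AT4G15680 and AT4G15690 have neighbouring codes and the same product name, and counts of uniquely mapped reads can split between such copies.

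LSU2, a gene of the response to low sulfur, had 77.6, 65.2, 22.5 and 5.51 CPM (-1.77, interval -1.97 to -1.56), and both libraries labelled sme1-1 lay below both labelled Col-0. AT1G04770, a tetratricopeptide repeat protein, had the same order at 11.5, 10.4, 4.76 and 0.940 CPM (-2.13, interval -2.63 to -1.64). TRFL8 was high in the library labelled sme1-1 20 °C, at 1.97, 2.29, 4.94 and 1.37 CPM (-2.03, interval -2.59 to -1.46). AT3G49950, a GRAS transcription factor, had -2.09 (-2.80 to -1.38) and AT2G01021, an uncharacterised protein, -1.69 (-1.97 to -1.42).

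Cell wall genes were mixed. BXL1, a beta-xylosidase that trims wall polysaccharides, had 86.5, 96.1, 119 and 40.1 CPM (-1.71, interval -1.81 to -1.61). Its relatives BXL2 and XYL4 had -1.61 and -1.15, so 3 of the 4 measured beta-xylosidases were at least 2-fold lower (75%). This family was chosen after the values had been seen. The fasciclin-like arabinogalactan protein FLA9 had 397, 311, 133 and 40.5 CPM (-1.36, interval -1.45 to -1.28) and AGP26 had -1.49, while AGP15 had 1.32. Of 37 arabinogalactan and fasciclin-like proteins, 3 were lower and 1 higher (8.11% and 2.70%, against 1.57% and 3.15% over all genes, median -0.38). Over the 121 pectin and cell wall enzymes, 6 were higher and 5 lower with a median of 0.03. These shares, 4.96% and 4.13%, stand beside 3.15% and 1.57% over all genes. PME2, a pectin methylesterase, had 1.66, 1.31, 1.56 and 5.23 CPM (2.04, interval 1.43 to 2.65).

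Of the 15 leading lower genes, 2 are encoded in the plastid genome. ATCG00340 had 43.5, 47.8, 58.8 and 15.5 CPM (-2.05, interval -2.20 to -1.90), and ATCG00350 had 38.8, 42.1, 61.0 and 23.0 CPM (-1.53, interval -1.66 to -1.39). Other genes of the same genome went the other way, with ATCG00730 at 1.70 (1.45 to 1.96). Of 64 measured plastid-encoded genes 3 were higher and 7 lower (4.69% and 10.9%, against 3.15% and 1.57% over all genes, median 0.03). Of 15 mitochondrion-encoded genes 1 was higher and 2 were lower (6.67% and 13.3%, median -0.31). The plastid share of all counts was 1.51%, 1.72%, 1.10% and 1.31%, and the mitochondrial share 0.0435%, 0.0401%, 0.0403% and 0.0234%. The part of these shares in the gene values was not tested.

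Cold-regulated genes, the textbook targets of cold acclimation, mostly had response ratios within 2-fold. Past 2-fold were 3 of 22 genes, XERO2, LEA14 and COR27, all higher (13.6% and 0%, against 3.15% and 1.57% over all genes). The list median was 0.24. XERO2, a dehydrin, had 1.70, 0.806, 339 and 725 CPM (2.13, interval 1.58 to 2.68). LEA14 had 19.05, 20.5, 139 and 321 CPM (1.10, interval 0.96 to 1.24). RD29A had 43.4, 36.6, 2422 and 3963 CPM (0.95, interval 0.86 to 1.05), just within 2-fold. XERO2, LEA14 and RD29A were far higher in both libraries labelled sme1-1 than in both labelled Col-0. In each of them the library labelled sme1-1 4 °C was the highest. COR27, counted among the genes past 2-fold, had 1.28 with an interval of -0.06 to 2.61 that held 0. It had fewer than 1 CPM under the Col-0 labels. GRP7, a glycine-rich RNA-binding protein, had 63.5, 62.0, 2694 and 1413 CPM (-0.90, interval -0.97 to -0.82), the lowest value in the list. COR15A had 0.08, COR15B -0.57 and COR47 0.14.

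Genes upstream in cold signalling had smaller values, with 1 of 13 higher and none lower (7.69% and 0%, median -0.07). Over all genes 3.15% were higher and 1.57% lower. ZAT6, a zinc finger factor, had 1.88, 1.04, 2.33 and 3.03 CPM (1.20, interval 0.58 to 1.81). CBF2 had 0.27 (-0.51 to 1.05), ICE1, an activator of CBF genes, 0.05, and PIF7 -0.50. None of the 19 flavonoid and anthocyanin genes was past 2-fold (median -0.15). Among 17 osmoprotectant and sugar genes 3 were higher and 2 lower (17.6% and 11.8%, median 0.29). SUS1, a sucrose synthase, had 12.8, 12.9, 244 and 576 CPM (1.23, interval 1.06 to 1.40), SWEET12, a sucrose exporter, had 1.54, and the lower members were ERD5 and DIN10. The third higher member, the hexose transporter STP13, had 1.06 and lay within 2-fold with TMM scaling. Of 8 sugar starvation genes 2 were lower and none higher (median -0.39), led by EXL1 at -1.53.

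Heat shock genes had the lowest median of the lists in the plot of lists, -0.65, with 1 of 11 higher and 2 lower (9.09% and 18.2%, against 3.15% and 1.57% over all genes). Of the groups made after the values had been seen, the 4 beta-xylosidases had a median of -1.38 and the 2 genes of the low sulfur response -1.36. HSFA7A, a heat shock factor, had 4.37, 2.50, 3.69 and 0.919 CPM (-1.16, interval -1.73 to -0.58). ROF2, a peptidyl-prolyl isomerase that binds HSP90, had 5.81, 8.40, 2.45 and 1.69 CPM (-1.05, interval -1.52 to -0.58). HSFB2A, a factor of the repressing class B, had 12.3, 9.78, 1.49 and 2.82 CPM (1.23, interval 0.77 to 1.68). The list thus held genes at both ends. Genes named as heat shock proteins in the annotation, 43 in all, had 1 higher and 3 lower (2.33% and 6.98%) with a median of 0.00.

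The circadian clock list had 1 of 18 members past 2-fold, on the higher side (5.56% and 0%, against 3.15% and 1.57% over all genes). GI, a clock protein of the evening, had 21.9, 29.7, 10.5 and 40.3 CPM (1.50, interval 1.31 to 1.69), with the library labelled sme1-1 20 °C the lowest and the library labelled sme1-1 4 °C the highest. CCA1 and LHY, the morning factors, had 0.07 and -0.07. The list median was -0.01. Flowering time genes had 1 of 14 higher and none lower (7.14% and 0%, median 0.26). The repressor FLC had 3.29, 0.255, 3.82 and 0.641 CPM (0.97, interval 0.02 to 1.92), low in both libraries labelled 4 °C, as SME1 was. The higher gene was FUL, a MADS-box factor, at 1.01. Abscisic acid genes had 2 of 21 higher and none lower (9.52% and 0%, median 0.26). The higher ones were the synthesis enzyme NCED3 at 1.00 and the breakdown enzyme CYP707A4 at 1.04. These 3 genes lay within 2-fold with TMM or DESeq2 scaling.

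RNA processing genes, the machinery to which SmE1 belongs, showed no response ratio past 2-fold in the lists. None of 27 splicing regulators was past 2-fold (median 0.02), with SR30 highest at 0.80. None of 11 LSM genes was past 2-fold (median 0.04), with LSM3A highest at 0.68. SME1 itself had -0.51 (-1.16 to 0.14), and SME2 -0.27 (-0.53 to -0.01).

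**Figure D4:**
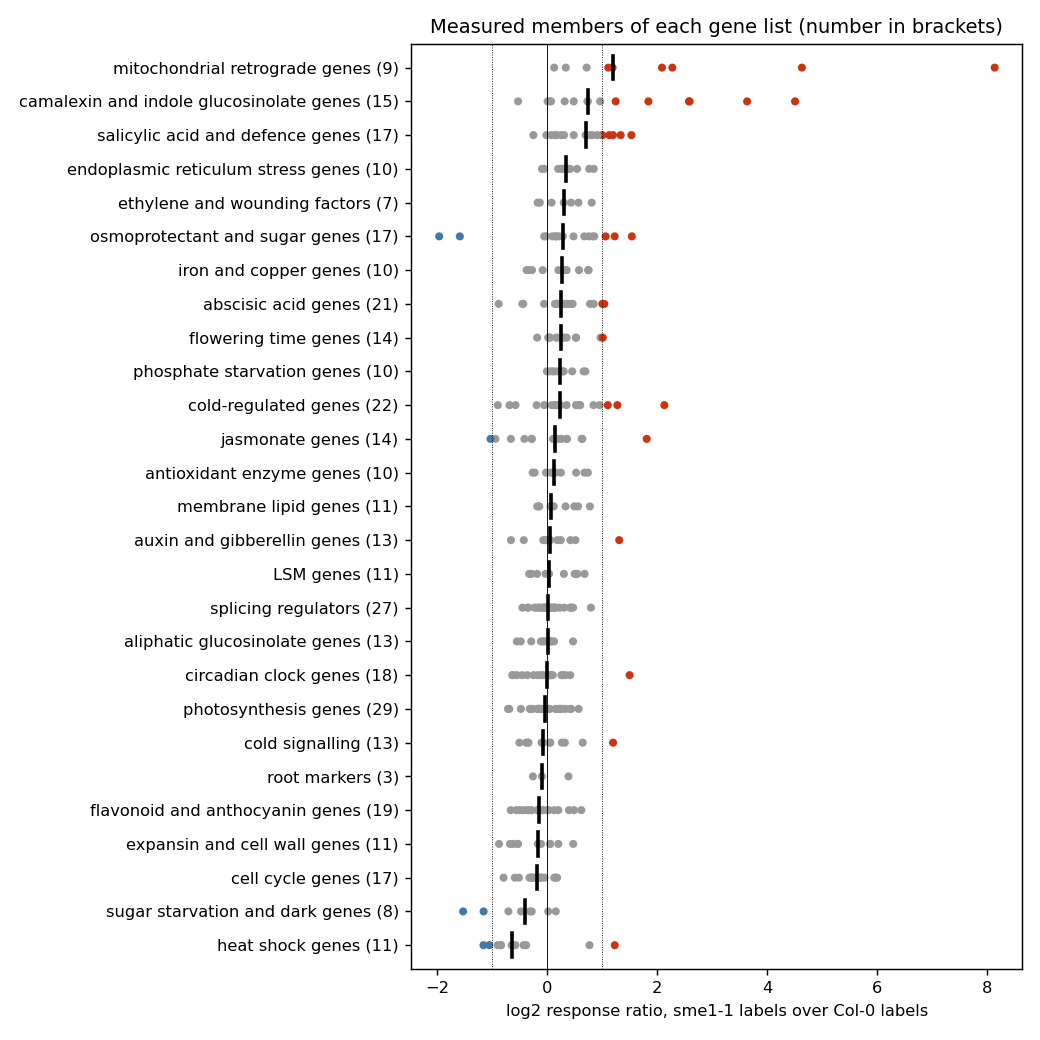
Each point is a measured gene of the list named on the y axis (lists with 3 or more measured genes), with the number measured in brackets, and the x axis is the log2 response ratio. Black bars are list medians, dotted lines mark 2-fold, and genes past it are red when higher and blue when lower. The mitochondrial retrograde list has the highest median of those shown, 1.19, and heat shock the lowest, -0.65.

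In most of the other lists few or no members were past 2-fold, and over all genes 3.15% were higher and 1.57% lower. Of 14 jasmonate genes 1 was higher, AOC3 at 1.81, and 1 lower, VSP1 at -1.03 (7.14% each, median 0.15). JAZ5 at -0.94 was past 2-fold and lower with TMM scaling. IAA19 at 1.31 was the 1 higher gene among 13 auxin and gibberellin genes (7.69%, median 0.04). No member was past 2-fold among 10 endoplasmic reticulum stress genes (median 0.34), 7 ethylene and wounding factors (0.30), 10 iron and copper genes (0.26), 10 phosphate starvation genes (0.24), 10 antioxidant enzymes (0.12) or 13 aliphatic glucosinolate genes (0.01). The same held for 29 photosynthesis genes (median -0.03), 11 membrane lipid genes (0.08), 11 expansin and cell wall genes (-0.17) and 17 cell cycle genes (-0.19). None of 3 root markers or 2 flower and pollen markers that passed the filter was past 2-fold, and no seed marker passed it. By family, the 294 genes named as ribosomal proteins had 3 higher and 1 lower (1.02% and 0.340%, median -0.06). Of 37 WRKY factors 1 was higher (2.70%, median 0.12). Of 43 ethylene response factors 1 was higher and 4 were lower (2.33% and 9.30%, median -0.09), and 12 histones had none past 2-fold (0.16). Of 28 SAUR genes, a family induced by auxin, 4 were higher and 1 lower (14.3% and 3.57%, median -0.02). Lipid transfer proteins had 3 higher and 2 lower of 42 (7.14% and 4.76%, median -0.01). Calmodulin-like and EF-hand genes had 3 higher and 2 lower of 40 (7.5% and 5.0%, median 0.24), and jacalin-type lectins 1 higher of 9 (11.1%, median 0.17). The peroxidase list, matched by product words with their capitals, held only 5 genes, and none passed the filter. It therefore does not describe peroxidases as a class. In lists made after the values had been seen, 2 of 4 wall-associated kinases were higher (50%) and 1 of 2 genes of the low sulfur response was lower (50%). In another such list, 22 HSP20-like chaperones had 1 higher and 3 lower (4.55% and 13.6%).

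A gene's ratio under each genotype label shows how the response ratio arose. Among the 543 higher genes, 275 had a ratio of 4 °C over 20 °C of at least 2-fold up under the sme1-1 labels and within 2-fold under the Col-0 labels, and 211 were within 2-fold under both. Only 13 went up under the sme1-1 labels and down under the Col-0 labels, each by at least 2-fold. Among the 270 lower genes, 157 went down under the sme1-1 labels and stayed within 2-fold under the Col-0 labels, and 85 were within 2-fold under both. If the labels sme1-1 20 °C and Col-0 4 °C are exchanged, the higher genes divide otherwise among the classes. Then 193 were up under the sme1-1 labels alone and 131 were within 2-fold under both. A further 107 were down under the Col-0 labels alone and 85 up under both. The lower genes then held 111 down under the sme1-1 labels alone, 81 within 2-fold under both and 38 down under both. These classes were not counted over all genes. The sign of the response ratio is thus the same under both readings, while the account of which genotype responded is not.

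Neighbouring genes could differ in direction. PCC1 (AT3G22231), named for control by pathogens and the clock, had 27.1, 23.3, 33.5 and 113 CPM (1.97, interval 1.82 to 2.11). AT3G22230, a ribosomal L27e protein next to it, had 638, 642, 992 and 431 CPM (-1.21, interval -1.24 to -1.18). The pair was chosen after its values had been seen. The strand of reads was not in the tables, so reads from overlapping or antisense transcripts could not be told apart.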

How the data were processed

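RNA from leaves was sequenced in 4 libraries, 1 per group. The deposited tables give, per the file headers, the count of uniquely mapped reads per gene, the percent of gene length covered, and RPKM (reads per kilobase and scaled to library size). Per the submitters' processing notes the genome build was TAIR10. Which aligner and counter made them is not given in the sources used here, nor is any filter on reads. Counts were divided by the file total (CPM), 0.05 CPM was added, and log2 values were taken. A gene missing from a table was set to 0. A mean of 1 CPM or more was required. The deposited RPKM values were used in no result, and the deposited percent covered was used as a description. The counting SE of each log2 response ratio came from the 4 counts. A gene past 2-fold is called higher or lower, with no test. The steps were tested on simulated data. Named genes are the 15 per direction with the interval bound nearest to 0 furthest from 0, up to 4 furthest members of each list or family, 5 genes per library apart, SME1 and SME2. Other members beside them, the family lists said to be picked later, and the PCC1 pair were picked with their values in view. The genes, lists (30, with 477 of 487 written members matched to the annotation) and rules were chosen with earlier results of these data known. Symbols came from TAIR10.1 by gene code for 22861 of 23049 genes. The result of 1 list is not reported here. Alternatives used other scalings, added constants, filters, call rules and exchanged labels. Tools were R 4.3.3, Python 3.11.15 with pandas 2.3.3, numpy 2.4.6, matplotlib 3.10.9 and scipy 1.17.1, edgeR 4.0.16 (TMM factors) and DESeq2 1.42.0 (size factors).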

Additional observations from a re-analysis of the deposited data

Results flagged for a closer look

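In 7 leading genes the ratio of 4 °C over 20 °C went in opposite directions under the 2 genotype labels, up under the sme1-1 labels and down under the Col-0 labels, each by at least 2-fold. The difference was not tested, since each group had 1 library. Under the Col-0 labels only the interval of AT2G04050 lay wholly beyond 2-fold, at -1.53 (-1.99 to -1.08, log2). The others were -1.44 for AT4G03450 (-2.35 to -0.53), -1.29 for CRK7 (-1.97 to -0.60) and -1.15 for PAD3 (-2.06 to -0.25). AT2G21640 had -1.10 (-1.42 to -0.77), CYP71A13 -1.08 (-1.25 to -0.90) and AACT1 -1.06 (-1.97 to -0.14). AACT1, PAD3 and AT4G03450 had 11 to 12 reads under the label Col-0 4 °C. The log2 response ratios of the 7 genes were 8.13 for AT2G04050, 4.51 for PAD3, 3.80 for AT4G03450, 3.63 for CYP71A13, 3.20 for AACT1, 2.96 for AT2G21640 and 2.86 for CRK7. With the labels sme1-1 20 °C and Col-0 4 °C exchanged, the log2 ratios of 4 °C over 20 °C are given for sme1-1 first and Col-0 after it. The directions were still opposite for AT2G04050 (3.05 and -5.09), AT2G21640 (1.34 and -1.61) and CYP71A13 (1.31 and -2.33). The value of -5.09 rests on 2 reads under the label sme1-1 20 °C. The reads of CYP71A13 covered 48.9% and 36.7% of the gene under the Col-0 labels, against 92.8% and 96.0% under the sme1-1 labels. PAD3 then had 6.28 and 1.77, AT4G03450 5.06 and 1.25, AACT1 4.15 and 0.96, and CRK7 4.40 and 1.54, all upward.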

How the results depend on the processing

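The count of genes at least 2-fold higher was 543 and lower 270. With 0.5 CPM added they were 361 and 149, with no filter 1659 and 1190 of 23049 genes, with 5 CPM or more required 201 and 111 of 13210 genes, and with at least 4-fold required 62 and 13. The filters change how many genes are tested, and the 4-fold rule is stricter by construction. With 0.5 CPM added the same 17218 genes met the same rule, and a larger constant draws ratios of low levels towards 0 by construction. Counts within 1.5 times came from TMM (440 and 351), DESeq2 size factors (454 and 337), totals over nuclear genes (542 and 271) and 0.01 CPM added (568 and 286). So did those from an interval without 0 (542 and 267) and the same sign in CPM (542 and 257). Exchanged labels gave 543 and 270, equal by construction. For the 30 leading genes, 78 of 228 values under alternatives equal the reported value by construction (exchanged labels and both filters). The other 150 stayed past 2-fold and none reversed, and TMM and DESeq2 scaling shift all genes nearly alike. These genes were chosen for interval bounds far from 0, so staying past 2-fold was favoured by the choice. With 0.5 CPM added, 5 differed from their value by more than its 95% counting half-width: AT2G04050 to 5.37, AACT1 to 2.33, AT1G11740 to -2.19, AT4G15660 to -2.20 and AT2G30540 to -1.34. By less than that half-width, MIOX2 went to -2.92, PAD3 to 3.70, UGT74E2 to 4.21, AT2G18193 to 3.19, AT4G03450 to 2.85 and CRK7 to 2.29. Of 384 list and family medians under alternatives, 48 of them equal by construction, 8 moved by more than their members' median half-width, among them salicylic acid and defence at 0.28 and camalexin and indole glucosinolate at 0.48 with a mean of at least 5 CPM. No paired analysis was possible because each group has 1 library and the labels give no replicate numbers. The depth limits values of genes at 1 to 5 CPM, where the median counting SE was 0.283, and counting error leaves out any spread between plants.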
